A study of Homo sapiens with 6 samples.

Results

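The genes of glucocorticoid and steroid response were examined in MM.1S cells 3 days after knockdown of PRKCN. The 9 genes were taken by symbol from the 21850 genes of the count table: the receptors NR3C1, NR3C2 and PGR, the receptor chaperones FKBP4, FKBP5 and PTGES3, and the response genes SGK1, TSC22D3 and ZBTB16, with FKBP5 also a response gene. All 9 symbols are listed and 8 had enough counts to be tested, the exception being ZBTB16. RNA-seq was performed on total RNA of MM.1S, a human multiple myeloma line known for its sensitivity to dexamethasone, a synthetic glucocorticoid. One group (shNT, 3 libraries, genotype WT) was infected with a scramble hairpin lentivirus and the other (shPRKCN, 3 libraries, genotype PRKCN knockdown) with a lentivirus carrying a hairpin against PRKCN. No steroid treatment is given for either group, and both were grown in medium with fetal bovine serum according to the methods of the study. The data therefore cover 1 line at 1 time point without added ligand. The sources used here do not state whether the 3 libraries of a group came from separate cultures, so p-values measure the spread between libraries, which may be technical.

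The glucocorticoid receptor, encoded by NR3C1, is held in the cytoplasm by HSP90 and its co-chaperones until a steroid binds, then enters the nucleus and binds DNA as a regulator of transcription. The mineralocorticoid receptor (NR3C2) and the progesterone receptor (PGR) belong to the same family and recognize the same kind of DNA element. In plasma cells and other lymphoid cells, glucocorticoids slow growth and promote death, which is why dexamethasone is a standard drug in myeloma. TSC22D3 (GILZ), FKBP5, SGK1 and ZBTB16 are widely used as readouts of receptor activity, although other signals also act on each of them.

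Sequence is shown at annotated starts of SGK1, FKBP5 and TSC22D3, the response genes whose groups did not overlap. The windows shown were picked because they hold a motif searched for below. Of the 9 members, 7 matched the RefSeq table of start windows on GRCh38.p14, with 24 windows in all, each of 300 bases from 250 bases before to 50 bases after an annotated start. The core receptor element AGAACA was searched on both strands (TGTTCT on the other), and the full palindrome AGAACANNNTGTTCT was searched in the same windows. The core element occurs in 14.8% of all 35116 windows and in 2 of the 24 member windows (8.33%), 1 of SGK1 and 1 of FKBP5. The full palindrome occurs in 1 of all windows and in 0 of the members' windows. A match describes letters only and is not a binding site, and the counts do not separate the starts of a gene. The TATA motif TATAAA, searched on the gene strand only, occurs in 7.33% of all windows and in 3 of the 24 member windows, 1 each of SGK1, TSC22D3 and NR3C1. Both windows with the receptor element are printed, with that of TSC22D3 that holds TATAAA, and capitals mark every match of either motif. All lie on the minus strand and are written 5′ to 3′, at chr6:134177812-134178111 for SGK1, chr6:35728534-35728833 for FKBP5 and chrX:107717013-107717312 for TSC22D3.
SGK1: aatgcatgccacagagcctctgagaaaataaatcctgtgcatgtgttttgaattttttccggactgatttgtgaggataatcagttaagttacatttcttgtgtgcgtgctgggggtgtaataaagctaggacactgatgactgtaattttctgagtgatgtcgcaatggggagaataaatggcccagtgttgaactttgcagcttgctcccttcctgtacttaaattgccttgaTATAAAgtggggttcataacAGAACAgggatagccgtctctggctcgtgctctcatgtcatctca
FKBP5: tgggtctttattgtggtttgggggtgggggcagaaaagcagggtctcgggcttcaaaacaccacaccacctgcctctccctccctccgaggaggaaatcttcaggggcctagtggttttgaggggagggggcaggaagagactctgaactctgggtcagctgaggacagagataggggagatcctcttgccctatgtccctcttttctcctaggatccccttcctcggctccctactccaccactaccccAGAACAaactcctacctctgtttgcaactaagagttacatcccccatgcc
TSC22D3: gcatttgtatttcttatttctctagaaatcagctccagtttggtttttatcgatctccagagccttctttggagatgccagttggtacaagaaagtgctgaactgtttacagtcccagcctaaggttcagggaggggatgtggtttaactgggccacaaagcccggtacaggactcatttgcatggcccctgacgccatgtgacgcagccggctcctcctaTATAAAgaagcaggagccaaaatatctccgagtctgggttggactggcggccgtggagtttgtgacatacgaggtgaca
The element starts at base 6 after the SGK1 start (counting the first transcribed base as 1) and at base 1 for FKBP5, and TATAAA spans bases -15 to -10 in the same SGK1 window and bases -29 to -24 in that of TSC22D3.

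Library totals ran from 35625564 to 37730003 counts, and no library stood apart from its group. PRKCN, listed as PRKD3, fell from 1262 ± 41.7 to 517 ± 23.4 CPM (counts scaled to the TMM-adjusted library size; mean ± SD, n = 3 in each group), which left 41.0% of the shNT level. Of 10 plasma cell markers, SDC1, JCHAIN, XBP1 and MZB1 had at least 13803 counts in every library and CD27 had at most 15. Their summed level was 9207 to 9327 CPM in shNT and 7921 to 8044 CPM in shPRKCN libraries, with IRF4, XBP1, TNFRSF17 and SLAMF7 called lower. SDC1 was higher inside the fold limit (log2 fold change 0.18, edgeR adjusted p = 2.09e-06). PRDM1 (-0.54, edgeR adjusted p = 3.42e-22) and MZB1 (-0.23, edgeR adjusted p = 7.41e-08) were lower inside it. JCHAIN (0.01) and CD38 (-0.01) had edgeR adjusted p of 0.712 and 0.875. By the adjusted p alone 6 of the 9 tested markers were lower (66.7%, against 27.8% of all genes) and 1 was higher (11.1%, against 26.5%). Of the T cell markers CD3D and CD3G had at most 1 count, although CD3E was called higher, and the summed level was 10.9 to 12.1 CPM in shNT and 27.7 to 31.5 CPM in shPRKCN libraries. The myeloid and stromal lists summed to at most 18.7 and 1.47 CPM, with CD68 (myeloid) and PDGFRB (stromal) called lower and LYZ, COL3A1 and DCN at 2 counts or fewer. The part of these marker changes in the results below was not tested.

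Levels of different genes were compared per gene length, on the FPKM scale that the authors deposited. In shNT cells the order was PTGES3 (95.3 FPKM), SGK1 (57.1), TSC22D3 (37.1), FKBP4 (31.9), FKBP5 (8.65), NR3C1 (6.999), NR3C2 (0.450), PGR (0.0166) and ZBTB16, listed at 0 in 2 of 3 shNT libraries. The ranges of neighbours in this order did not overlap in either group. In shPRKCN cells SGK1 (110.7 FPKM) stood above PTGES3 (95.7), and FKBP4 (31.3) stood above TSC22D3 (25.8), while the other places were as in shNT. Among the 3 receptors of the set NR3C1 had the highest level, 15.6 ± 1.22 times that of NR3C2 per length in shNT cells and 19.2 ± 2.44 times in shPRKCN cells (ratio of FPKM values; SD, n = 3 in each group). The lengths implied by the deposited values were 20396 bases for NR3C1, 17488 for PGR and 3444 for TSC22D3, and the order of levels depends on these lengths.

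**Figure D1:**
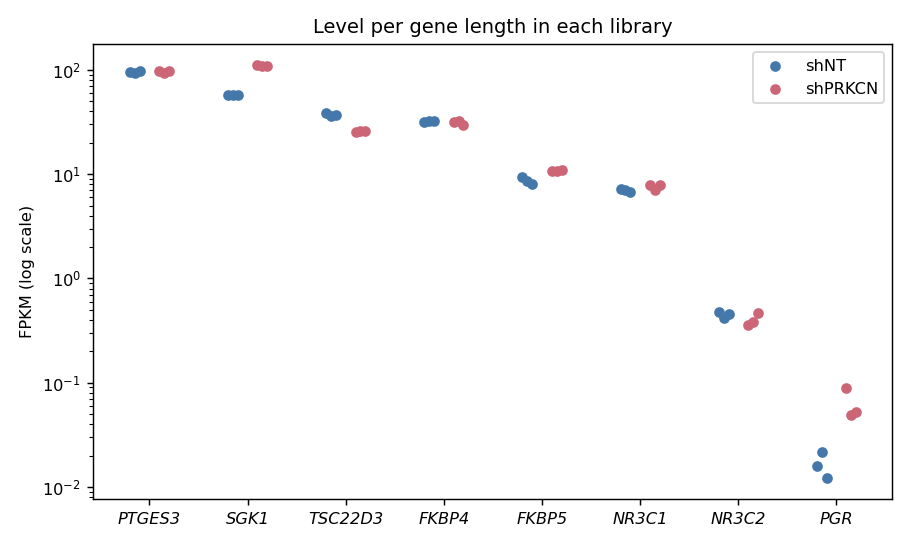
Level per gene length (FPKM, log scale) of 8 members in each library, with shNT in blue and shPRKCN in red and 1 point per library. ZBTB16 is left out because it is listed at 0 in 5 of 6 libraries. SGK1 stands at 57.0 to 57.2 FPKM in shNT and 110 to 112 in shPRKCN libraries, above PTGES3 in the second group.

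Among the 8 tested members, SGK1 and PGR were called higher in shPRKCN cells and 0 were called lower. A call required a Benjamini-Hochberg adjusted p under 0.05 from edgeR's quasi-likelihood test over all genes tested and a log2 fold change beyond 0.58. The 2 calls are 25% of the tested members, against 16.7% of the 13971 genes tested (6.15% called higher and 10.6% called lower). Without the fold limit 5 members passed, 4 higher (PGR, SGK1, FKBP5 and NR3C1) and 1 lower (TSC22D3), or 62.5%, against 54.2% of all genes (26.5% higher and 27.8% lower). In 4 members (SGK1, PGR, FKBP5 and TSC22D3) the libraries of both groups did not overlap, which was so for 58.8% of all genes. With 8 genes these shares stand close to the background, and the median log2 fold change of the tested members was 0.05 against 0.0012 over all genes. In these bulk libraries a change in level per cell cannot be told apart from a change in the share of cells that express a gene.

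**Figure D2:**
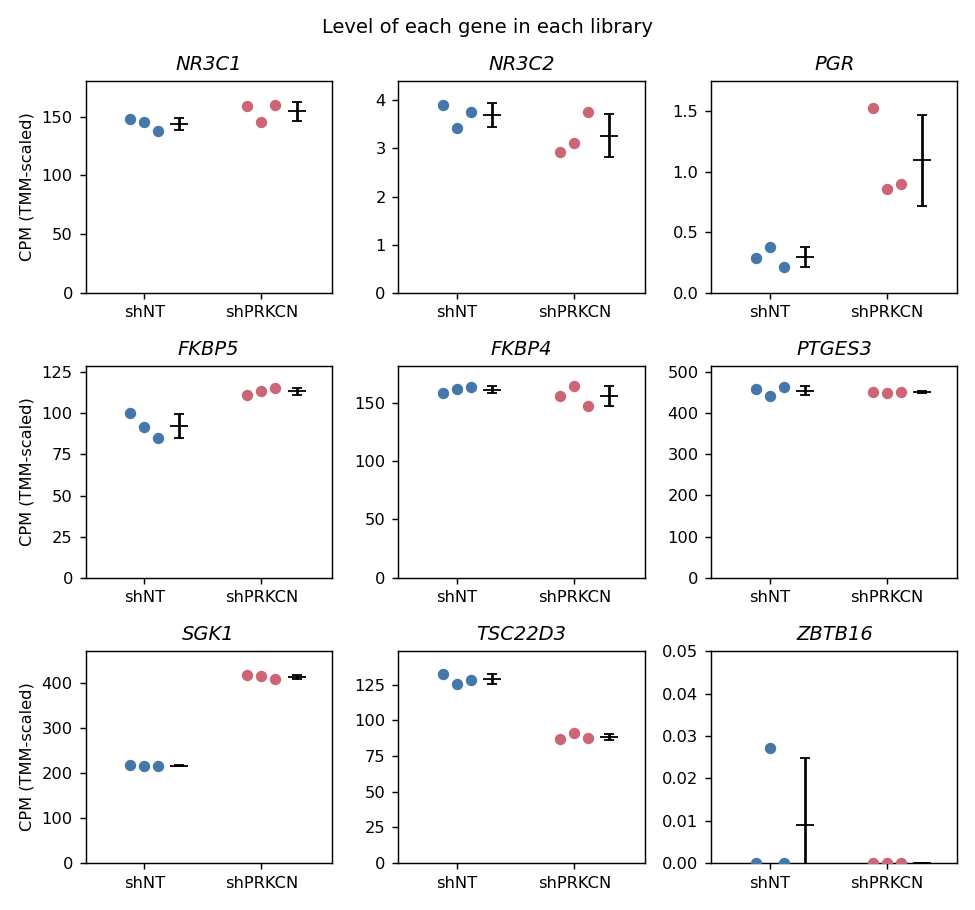
Level of each member (CPM on TMM-scaled library sizes, axes from 0) in 3 shNT (blue) and 3 shPRKCN (red) libraries, with the group mean and SD in black. SGK1 (216 to 217 against 408 to 417 CPM), PGR and FKBP5 lie higher and TSC22D3 lower in every shPRKCN library, whereas NR3C1, NR3C2, FKBP4 and PTGES3 overlap.

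Of the receptors, NR3C1 showed a difference too small to separate the groups. It lies on chromosome 5 from 143277931 to 143435512 (GRCh38.p14). Its level was 148, 145 and 138 CPM in shNT and 159, 145 and 160 CPM in shPRKCN. The second shPRKCN library fell within the shNT range and the others lay above it. The log2 fold change was 0.11 (standard error, SE, 0.039, 95% interval 0.03 to 0.19, edgeR adjusted p = 0.0184), well inside the fold limit. Without shNT 3, shPRKCN 1 or shPRKCN 3 the adjusted p rose to 0.116, 0.103 and 0.101, and it was 0.0918 to 0.145 with limma on the FPKM values, so the call at 0.05 depends on single libraries and on the method.

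NR3C2, on chromosome 4 from 148078764 to 148445322, was low, with 138, 126 and 141 counts in shNT and 109, 116 and 143 in shPRKCN. The groups overlapped, since the third shPRKCN library lay within the shNT range. Its log2 fold change was -0.18 with a 95% interval of -0.52 to 0.16 (edgeR adjusted p = 0.388), which includes 0 and changes up to about the fold limit on the lower side. The mineralocorticoid receptor binds cortisol as well as aldosterone, and cells protect it with HSD11B2, the enzyme that inactivates cortisol. HSD11B2 had 14 to 27 counts per library and a log2 fold change of -0.15 (SE 0.407, edgeR adjusted p = 0.775).

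PGR, on chromosome 11 from 101029624 to 101129813, had 10, 14 and 8 counts in shNT and 57, 32 and 34 in shPRKCN. Every shPRKCN library lay above every shNT library, and the first was well above the others. The log2 fold change was 1.89 (SE 0.410, 95% interval 1.07 to 2.71, edgeR adjusted p = 6.66e-05), and it was 1.58 without shPRKCN 1. The study named PGR among its changed transcription factors on these same libraries, so this call is not independent evidence. The level stayed at or below 0.0883 FPKM in all libraries, under that of every other tested member, and with 1 or 0.1 added to the FPKM before the logarithm the log2 change was 0.06 or 0.48, under the limit.

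Of the other steroid-type receptors, ESRRA and ESR1 were higher without reaching the fold limit. ESRRA, an orphan receptor that acts on mitochondrial genes and stood above NR3C1 per length (13.9 FPKM on average in shNT), had 1703, 1703 and 2040 counts in shNT against 2525, 2618 and 2630 in shPRKCN libraries, a log2 fold change of 0.48 (SE 0.050, edgeR adjusted p = 8.28e-13). ESR1, the estrogen receptor α, had 62, 82 and 85 against 98, 120 and 111 counts, a log2 fold change of 0.49 (SE 0.201, edgeR adjusted p = 0.0358). ESRRG had a log2 fold change of -0.41 (edgeR adjusted p = 0.123) and ESR2 of 0.04 (edgeR adjusted p = 0.956), with ESR2 at 18 counts or fewer. ESRRB had at most 3 counts and was not tested.

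**Figure D3:**
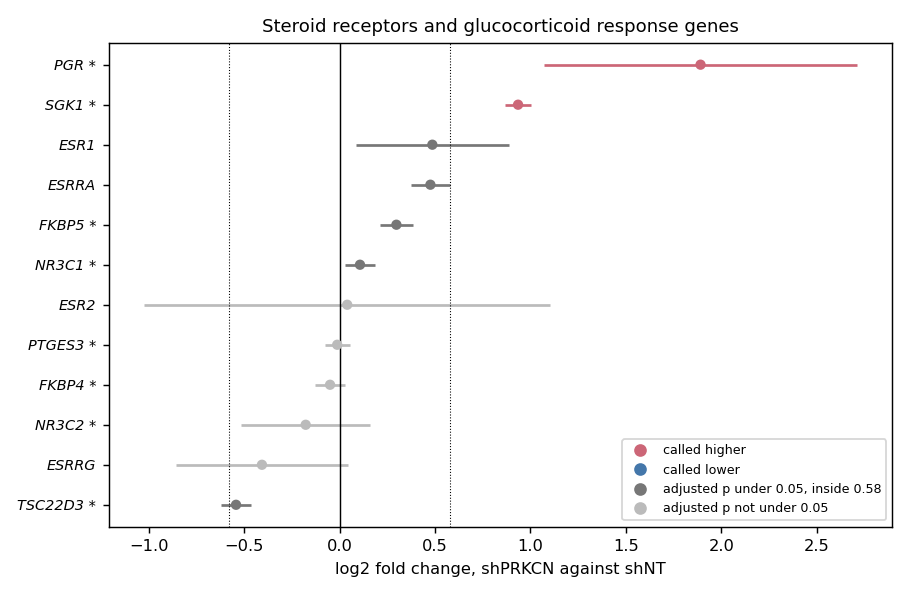
Log2 fold change (shPRKCN against shNT) with its 95% interval for the 8 tested members (asterisk) and 4 further tested receptors. Dotted lines mark the fold limit of 0.58. PGR (1.89) and SGK1 (0.94) lie past it, TSC22D3 (-0.54) just inside it, and NR3C2, ESR2 and ESRRG have wide intervals that include 0.

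FKBP5 was the chaperone member that rose. FKBP5 (FKBP51) and FKBP4 (FKBP52) are immunophilins that compete for the HSP90-bound receptor, where FKBP5 lowers hormone affinity and FKBP4 favors transport to the nucleus. FKBP5, on chromosome 6 from 35573590 to 35728583, stood at 100.1, 91.9 and 85.0 CPM in shNT and at 111, 113 and 115 CPM in shPRKCN. All shPRKCN libraries lay above all shNT libraries, with a gap smaller than the range within shNT. The log2 fold change was 0.30 (SE 0.044, 95% interval 0.21 to 0.38, edgeR adjusted p = 2.37e-08), inside the fold limit, and it ran from 0.24 to 0.36 with single libraries left out.

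FKBP4, on chromosome 12 from 2794970 to 2805423, had 158, 162 and 164 CPM in shNT libraries and 156, 164 and 148 CPM in shPRKCN libraries. The groups overlapped, and the log2 fold change was -0.05 with a 95% interval of -0.13 to 0.03 (edgeR adjusted p = 0.274). The FPKM of FKBP4 was 3.35, 3.72 and 4.08 times that of FKBP5 in shNT and 2.96, 3.06 and 2.70 times in shPRKCN. This ratio was lower in every shPRKCN library than in any shNT library, through the level of FKBP5 more than that of FKBP4.

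PTGES3, which encodes the co-chaperone p23 that stabilizes the ligand-binding form of the receptor, had the highest level of the members in shNT cells. It lies on chromosome 12 from 56663349 to 56688284 and had 456, 441 and 463 CPM in shNT and 451, 447 and 451 CPM in shPRKCN. The shPRKCN values lay within the shNT range. The log2 fold change was -0.01 with a 95% interval of -0.08 to 0.05 (edgeR adjusted p = 0.765), which leaves room only for changes far smaller than the limit. GENCODE release 29 names 5 pseudogene copies each of PTGES3 and FKBP4, and how reads shared with them were counted is not stated, so these 2 levels carry that uncertainty.

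Other receptor chaperones moved little, apart from the inducible HSP70 genes. All 20 genes of a hand-written list of HSP90 and HSP70 chaperones and co-chaperones, with the 3 members among them, were tested. Of these, 0 were called higher and 2 lower (10%, against 16.7% of all genes), 5 were higher and 5 lower by the adjusted p alone (50%, against 54.2%), and the median log2 fold change was 0.03 against 0.0012 over all genes. The called genes were HSPA1B, at 67.6 ± 2.00 CPM in shNT and 29.5 ± 0.616 CPM in shPRKCN (SD, n = 3 per group, log2 fold change -1.20, SE 0.052, edgeR adjusted p = 3.81e-31), and HSPA1A, with a log2 fold change of -0.96 (SE 0.235, edgeR adjusted p = 0.000377). They encode nearly the same protein and transcript, so the division of reads between them is uncertain. The HSP90 genes went opposite ways inside the limit, HSP90AA1 (inducible) with a log2 fold change of -0.28 (SE 0.035) and HSP90AB1 (constitutive) of 0.13 (SE 0.031), both past the adjusted p. The HSP40 gene DNAJB1 (0.31) and the HSP70 exchange factor BAG1 (0.18) were higher on the log2 scale and past the adjusted p.

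The response genes moved in opposite directions. SGK1, on chromosome 6 from 134169256 to 134318112, encodes a kinase that is induced by glucocorticoids and mineralocorticoids, promotes cell survival and is activated downstream of mTORC2. It stood at 217, 216 and 216 CPM in shNT and at 417, 415 and 408 CPM in shPRKCN. The groups were far apart relative to the spread within each, with an SD of 0.646 CPM in shNT and 4.47 CPM in shPRKCN. An SD from 3 libraries is imprecise, and that of shNT lies below what counting error alone would give. The same holds for some SDs of other genes given here. The mean rose 1.91-fold (log2 fold change 0.94, SE 0.034, 95% interval 0.87 to 1.00, edgeR adjusted p = 2.86e-35), and the log2 value stayed between 0.93 and 0.95 over all alternatives. The exact 2-sided permutation test over the 6 libraries gave p = 0.1, the smallest that 3 libraries against 3 allow.

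TSC22D3, on chromosome X from 107713221 to 107775988, encodes GILZ, a leucine zipper protein through which glucocorticoids restrain NF-κB and AP-1. Its level was 133, 126 and 128 CPM in shNT and 87.0, 90.8 and 87.4 CPM in shPRKCN. Every shPRKCN library lay below every shNT library, and the mean was 68.6% of the shNT mean. The log2 fold change was -0.54 (SE 0.041, 95% interval -0.62 to -0.46, edgeR adjusted p = 4.87e-19), between -0.56 and -0.51 over the alternatives, so it passed the adjusted p in all of them and the fold limit in none. With SGK1 higher and TSC22D3 lower, the FPKM ratio of SGK1 to TSC22D3 was 1.54 ± 0.0375 in shNT and 4.28 ± 0.103 in shPRKCN cells (SD, n = 3 in each group).

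ZBTB16 (PLZF), a transcription factor strongly induced by dexamethasone in many tissues, was essentially undetected. It had 0, 1 and 0 counts in shNT and 0 in each shPRKCN library. A count of 0 allows up to 3 counts, or 0.0790 to 0.0849 CPM depending on the library, so a level under that value was not detectable at this depth (counting error only). This member therefore gives no comparison between the groups.

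A longer list of genes that glucocorticoids are known to induce in one tissue or another held more genes called lower than higher. All genes tested also held more lower calls (10.6%) than higher calls (6.15%). Of its 43 genes, PCK1 and P2RY14 are absent from the count table, 10 more (ZBTB16 among them) had too few counts, and 31 were tested. Of these, 2 were called higher and 6 lower (25.8% in all, against 16.7% of all genes). By the adjusted p alone 7 were higher (22.6%, against 26.5% of all genes) and 14 lower (45.2%, against 27.8%). The median log2 fold change was -0.25, against 0.0012 over all genes. Without the members, 28 were tested, with 1 called higher and 6 lower (25% in all, against 16.7% of all genes). Lower calls were 21.4% of the 28, against 10.6% of all genes, and the median was -0.27. Many of these genes also respond to growth factor, stress or NF-κB signals, and the list does not separate those inputs.

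Among the lower genes, DUSP1, the phosphatase that inactivates MAP kinases, had 9889, 10492 and 10614 counts in shNT and 3703, 3730 and 3803 in shPRKCN libraries. The groups were widely apart, with a log2 fold change of -1.50 (SE 0.037, edgeR adjusted p = 5.93e-45). RGS2, a brake on G protein signaling, changed by -1.42 (SE 0.053) and TNFAIP8, an apoptosis regulator, by -1.07 (SE 0.046) on the log2 scale. CXCR4, the receptor that holds plasma cells in the marrow, stood at 91.8 ± 0.720 CPM in shNT and 55.1 ± 1.64 CPM in shPRKCN (SD, n = 3 per group, log2 fold change -0.74, SE 0.045). DDIT4, an inhibitor of mTORC1, lay beside TSC22D3 just inside the limit, with a log2 fold change of -0.54 (SE 0.034, edgeR adjusted p = 1.94e-22).

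Higher genes on the list were fewer. MT1X, a metallothionein, had 53, 56 and 62 counts in shNT and 102, 112 and 130 in shPRKCN libraries (log2 fold change 0.97, SE 0.212, edgeR adjusted p = 7.68e-05), and reads of this family can be shared between its members. MT2A, from the same family, had a log2 fold change of -0.44 with a SE of 0.365 (edgeR adjusted p = 0.313). BTG1, an antiproliferative gene, was higher by 0.48 (SE 0.033), IRS2, an insulin receptor adaptor, by 0.52 (SE 0.076) and GLUL, glutamine synthetase, by 0.42 (SE 0.041) on the log2 scale, all past the adjusted p and inside the limit. BTG2, also on the list, was lower inside the limit (log2 fold change -0.32, SE 0.032, edgeR adjusted p = 7.99e-14). BCL2L11, which encodes BIM and mediates glucocorticoid killing of lymphoid cells, stood at 307 ± 4.98 and 300 ± 1.21 CPM (SD, n = 3 per group), with a log2 difference of -0.03 (SE 0.034, edgeR adjusted p = 0.397). PER1 and NFKBIA had log2 fold changes of 0.06 and -0.05 (edgeR adjusted p = 0.462 and 0.56). PER2, unlike PER1, was called lower (log2 fold change -0.69, SE 0.061, edgeR adjusted p = 9.91e-16).

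**Figure D4:**
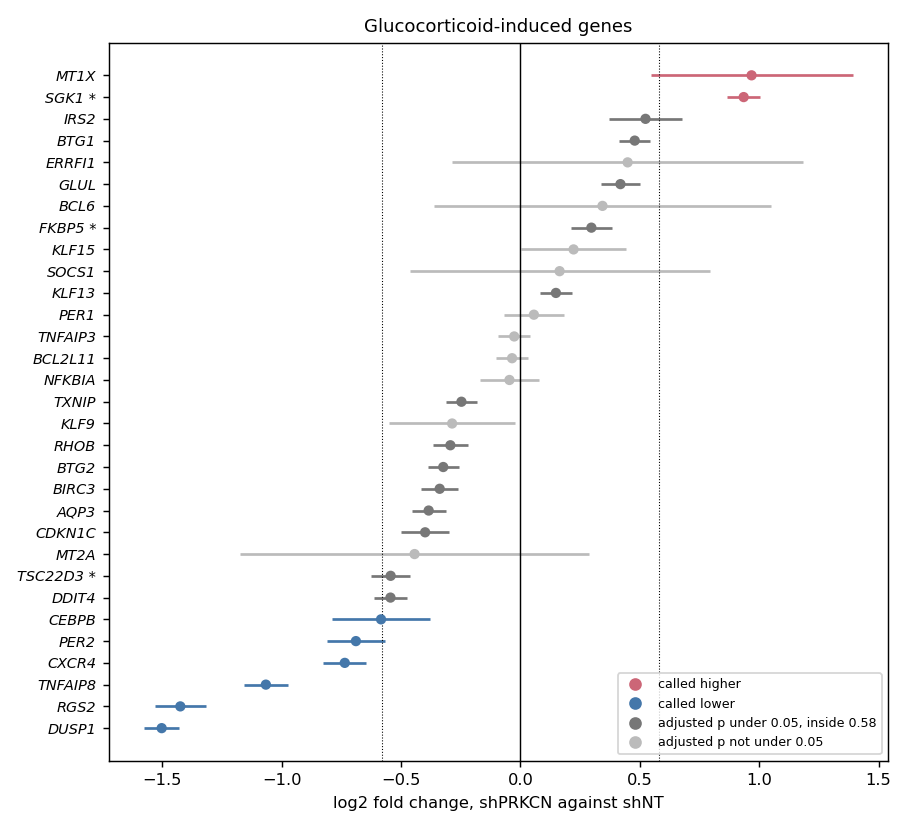
Log2 fold change (shPRKCN against shNT) with its 95% interval for 31 tested glucocorticoid-induced genes, with members marked by an asterisk and the fold limit of 0.58 by dotted lines. SGK1 (0.94) lies near the top, FKBP5 (0.30) above 0 and TSC22D3 (-0.54) among the lower genes, whose lowest is DUSP1 (-1.50).

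Coregulators through which the receptors act on transcription changed only inside the limit. All 25 were tested and 0 were called in either direction by edgeR, against 16.7% of all genes. By the adjusted p alone 9 were higher and 4 lower (52% in all, near the 54.2% of all genes), with a median log2 fold change of 0.07. The coactivators NCOA2 (0.21), NCOA3 (0.13), EP300 (0.18) and CREBBP (0.15), the arginine methyltransferase CARM1 (0.32) and the SWI/SNF subunit SMARCD1 (0.36) were higher on the log2 scale. Other SWI/SNF genes did not rise with SMARCD1. SMARCA2 was lower (-0.21, edgeR adjusted p = 3.54e-06), and SMARCA4 (0.07) and ARID1A (0.005) had edgeR adjusted p of 0.0717 and 0.919. HEXIM1, an inhibitor of transcription elongation that also binds the glucocorticoid receptor, was lower (-0.48, SE 0.050, edgeR adjusted p = 4.63e-13), as was the corepressor subunit TBL1XR1 (-0.34, SE 0.036). Most of the higher genes changed by less than 0.26 on the log2 scale.

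**Figure D5:**
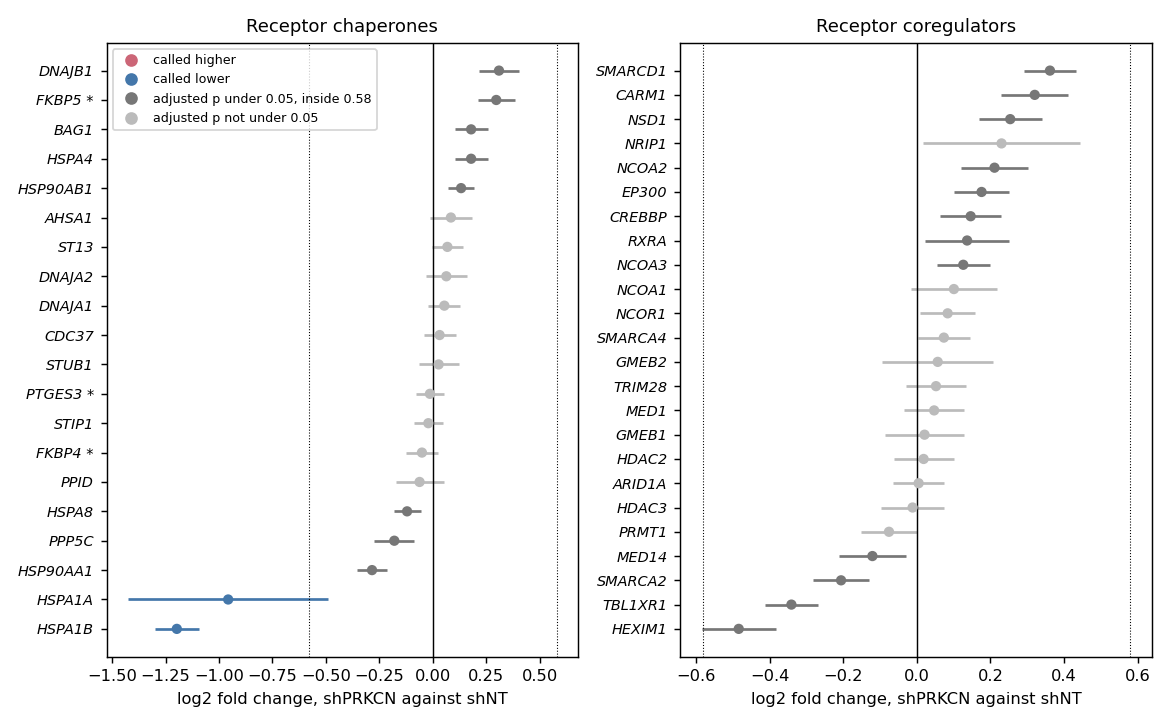
Log2 fold change (shPRKCN against shNT) with its 95% interval for 20 receptor chaperones (left, members marked by an asterisk) and 24 of the 25 receptor coregulators (right), with the fold limit of 0.58 as dotted lines. HSPA1B (-1.20) and HSPA1A (-0.96) are past it at left, and no coregulator shown at right is past it.

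SGK1 is best known in the kidney for raising sodium transport, and genes of that program were read alongside it. Of 21 genes 18 were tested, 3 were called higher (SGK1 among them) and 1 lower (22.2% in all, against 16.7% of all genes). By the adjusted p alone 5 were higher and 6 lower (61.1%, against 54.2%), and the median log2 fold change was -0.05. Without the members SGK1 and TSC22D3, 16 were tested, with 2 called higher and 1 lower (18.8%, near the 16.7% of all genes). USP2, a deubiquitinase of the sodium channel, was higher by 1.16 (SE 0.212, edgeR adjusted p = 3.24e-06) with 49, 60 and 59 counts in shNT and 107, 108 and 172 in shPRKCN libraries. ATP1B1, a sodium pump subunit, was higher by 0.78 (SE 0.113, edgeR adjusted p = 1.39e-08). The gene called lower, KCNJ1, a potassium channel named after its values were seen, had 32, 24 and 21 counts in shNT and 6, 4 and 5 in shPRKCN libraries. NEDD4L, the ubiquitin ligase that SGK1 phosphorylates and restrains, was lower by the adjusted p alone (log2 fold change -0.55, SE 0.078, edgeR adjusted p = 9.09e-09).

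The epithelial sodium channel genes, also singled out after their values were seen, were unevenly expressed. SCNN1B had 171 FPKM and SCNN1G 107 FPKM on average in shNT cells, places 262 and 445 among all genes, whereas SCNN1A had 0.101 FPKM. SCNN1B had 17038, 17494 and 17917 counts in shNT and 19902, 21150 and 19666 in shPRKCN libraries, a log2 fold change of 0.17 (SE 0.034, edgeR adjusted p = 1.32e-05). SCNN1G had a log2 fold change of 0.20 (SE 0.034, edgeR adjusted p = 5.11e-07), and SCNN1A, which encodes the α subunit, of -0.55 (SE 0.513, edgeR adjusted p = 0.376) with 6 to 20 counts per library. SCNN1D, which encodes the δ subunit, had 0 to 14 counts and was not tested. SCNN1B and SCNN1G were thus among the more abundant transcripts of these cells, and both rose by less than the limit.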

How the data were processed

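The authors deposited raw counts for 21850 genes in 6 MM.1S libraries and FPKM values for the same genes. The FPKM follow from the counts, the library totals and 1 gene length (largest relative deviation 7.9e-07), so both hold the same measurement. The submitters' processing notes name FastQC, HISAT2, StringTie and GRCh38.p14, and the paper names DESeq2. The counting program, annotation and strandedness are not given in the sources used here. In GENCODE 29, ITFG2-AS1 (at most 58 counts) lies opposite FKBP4.

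In R 4.3.3, edgeR 4.0.16 gave TMM scaling and a quasi-likelihood test of the counts for the 13971 genes kept by filterByExpr, with Benjamini-Hochberg adjustment over all of them. A call needed a log2 fold change past 0.58 in size as well as an adjusted p below 0.05, the limits of the study. At these limits the study reported more changed genes in each direction than the 859 higher and 1475 lower calls here. DESeq2 gave 813 higher and 1445 lower calls here, also fewer than the study reported. The reason for this difference was not tested. The standard error is the log2 fold change over the square root of F. DESeq2 1.42.0, limma 3.58.1, other scalings and filters, a replicate block and left-out libraries were alternatives. On simulated data the steps recovered changes planted in genes with a mean above 50 counts. Genes with fewer counts, such as PGR, were not covered by that check. The chi-square per degree of freedom over genes was 3.38 to 4.80 within and 63.8 to 70.2 between groups, so no library repeated another.

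The members and gene lists were chosen with earlier results of these data known. Named genes are all members and listed receptors and, per list, up to 4 called genes in each direction with a mean of at least 50 counts. Other genes of the lists were named after their values were seen. The values of 1 receptor and 1 coregulator of the lists are not reported here.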

Additional observations from a re-analysis of the deposited data

How the results depend on the processing

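Member log2 fold changes were recomputed under up to 16 alternatives, and 118 of the 125 values kept their direction and their call, which needs the adjusted p and the fold limit together. Of the adjusted p alone, that of NR3C1, never called, was under 0.05 in 10 of 16 alternatives (range 8.89e-04 to 0.145). PGR was 0.06 with limma on log2(FPKM + 1) (adjusted p = 0.159) and 0.48 on log2(FPKM + 0.1), both under the limit because an added constant compresses low values. It was not tested with at least 10 counts in every library or with an FPKM of at least 1. The log2 fold change of PTGES3, near 0, turned to 0.0065 with library size alone, to 0.0066 or 0.0067 with limma, and to 0.0027 without shNT 3 (lowest -0.028 without shNT 2), with adjusted p from 0.582 to 0.958.

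The count of members called higher was 1 with at least 10 counts in every library and with each limma fit, and 4 without a fold limit, where 1 was lower. Over all genes, 859 higher and 1475 lower calls became 316 and 651 with log2(FPKM + 1), 309 and 634 with an FPKM of at least 1, and 3700 and 3877 without a fold limit. Dropping that limit also gave 5 higher and 5 lower chaperones, 7 higher and 14 lower glucocorticoid-induced genes, 9 higher and 4 lower coregulators, and 5 higher and 6 lower sodium transport genes. With log2(FPKM + 1), filtered or not, 1 chaperone was called lower. The called-lower sodium transport gene KCNJ1 was lost (0 called) with at least 10 counts in every library and on log2(FPKM + 1), and that count ran from 1 to 2 with single libraries left out, reaching 2 without shNT 1 or shPRKCN 3.

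Replicate numbers did not pair the libraries: same-numbered libraries had deviations correlated by -0.040 to 0.0039, and 0 of 6 correlated best with their own number. With a replicate block, 854 genes were higher and 1463 lower, with 2 members higher, and no call of a member or list count changed. Low counts limit PGR, NR3C2 and ZBTB16.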

Other observations

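Genes of steroid metabolism and efflux, none of them a member, held 3 called higher and 0 called lower of 16 tested, from a list of 23 (18.8%, against 16.7% of all genes), with a median log2 fold change of 0.03. ABCB1, the efflux pump P-glycoprotein, which carries dexamethasone among many drugs, had 25, 12 and 35 counts in shNT and 118, 87 and 113 in shPRKCN libraries. Every shPRKCN library lay above every shNT library, and the log2 difference was 2.10 (SE 0.278, edgeR adjusted p = 1.19e-09), at a level of 2.82 ± 0.430 CPM (SD, n = 3) in shPRKCN cells. HSD17B10, a mitochondrial dehydrogenase that acts on steroids and fatty acids, was higher, at 38.4 ± 2.72 CPM in shNT and 72.8 ± 0.0502 CPM in shPRKCN (SD, n = 3 per group, log2 fold change 0.92, SE 0.051, edgeR adjusted p = 1.26e-25). Its SD in shPRKCN lies below what counting error alone would give. SRD5A3, a reductase now known for dolichol synthesis, was higher by 0.66 on the log2 scale (SE 0.124, edgeR adjusted p = 5.44e-06).

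HSD11B1, which regenerates active cortisol, had 16, 19 and 22 counts in shNT and 30, 27 and 29 in shPRKCN libraries, with a log2 fold change of 0.55 and a SE of 0.385 (edgeR adjusted p = 0.227), so a difference was not detectable at this depth. H6PD, which supplies its cofactor, was higher by the adjusted p alone (log2 fold change 0.21, SE 0.066, edgeR adjusted p = 0.00508).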
